A study of Mus musculus with 12 samples.

Results

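The cyclin-dependent kinase inhibitors Cdkn1a, Cdkn1b, Cdkn1c, Cdkn2a, Cdkn2b and Cdkn2c, the D-type cyclins Ccnd1, Ccnd2 and Ccnd3, and Trp53 are described here in the ventricles of hypoxic and normoxic mice. These 10 genes were taken by name, and all 10 were found among the 39210 genes of the deposited table. Ventricular tissue of C57BL/6 mice was sequenced in 12 libraries, 3 each from male hypoxia, male normoxia, female hypoxia and female normoxia hearts, with no other genetic or drug treatment named in the labels. In the hypoxia groups the chamber oxygen came down by 1% a day over 14 days to 7% and stayed there for 2 weeks, and the normoxia groups breathed 20.9% oxygen for 4 weeks. Left and right ventricle were not separated in the labels, and nothing there says whether each library came from 1 animal, so the p-values measure the spread between these libraries, which may be technical.

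D cyclins bind Cdk4 or Cdk6 at the start of the cell cycle, and the resulting kinase phosphorylates the retinoblastoma protein, which then releases E2F transcription factors to switch on genes of DNA synthesis. The INK4 proteins (Cdkn2a, Cdkn2b, Cdkn2c) bind Cdk4 and Cdk6 and keep the cyclin out, whereas the CIP/KIP proteins (Cdkn1a, Cdkn1b, Cdkn1c) bind cyclin and kinase together and block Cdk2 most strongly. Trp53 encodes the p53 protein, a stress-activated transcription factor whose best known target is Cdkn1a. Adult mouse heart muscle cells divide rarely, and much of the cycling in an adult heart takes place in endothelial cells, fibroblasts and immune cells.

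The library totals ran from 14915830 to 19397851 estimated counts. The 8 ventricular cardiomyocyte markers were detected in every library, with summed levels from 43020 to 64430 CPM (counts scaled to a common library size and corrected for composition). Male hypoxia libraries 2 and 3 carried more atrial marker RNA than other libraries of their sex: the 7 atrial markers summed to 537 to 1753 CPM in male hypoxia, against 127 to 193 CPM in male normoxia, and to 233 to 1084 CPM in female hypoxia, against 168 to 278 CPM in female normoxia. Female hypoxia library 3 held the 1084 CPM, above the 985 CPM of male hypoxia library 3. It was kept in the alternatives below that left out male hypoxia libraries 2 and 3. On the second principal component of all genes the score of female normoxia library 3 was -69.7, where the other 11 libraries had -14.7 to 20.9. On the first component female hypoxia library 1 scored 2.68, apart from the 37.5 and 41.1 of the other female hypoxia libraries.

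Across the sexes, hypoxic ventricles had more Trp53 and Cdkn2b RNA and less Cdkn1c RNA than normoxic ventricles, and the other 6 members that could be tested did not pass. In alternative analyses the Cdkn2b call was lost in 14 of 24, the Cdkn1c call in 17 of 25 and the Trp53 call in 2 of 25. The largest within-group SD in CPM belonged to Cdkn1a. This gene was several-fold higher in hypoxic than in normoxic males, a difference that did not pass (edgeR adjusted p = 0.0695). It was as high in 1 normoxic female library as anywhere in the series. Ccnd3 rose in females and was nearly level in males, a difference between the sexes that itself did not pass. Cdkn2a was close to the limit of detection in every group. The averaged contrast, which weights the male and the female response equally, called 3 of the 9 tested members by edgeR's quasi-likelihood test at an adjusted p under 0.05, 2 higher and 1 lower. The same test called 27.9% of all 13960 genes, 15.0% higher and 12.9% lower, so 3 of 9 is close to the share of all genes. The median log2 fold change of the 9 members was 0.30, beside -0.01 for all genes tested.

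Trp53 RNA stood at 17.3, 19.8 and 29.4 CPM in the 3 male hypoxia libraries, against 15.7, 17.0 and 16.9 CPM in the male normoxia libraries. In females it stood at 22.8, 33.1 and 30.7 CPM in hypoxia, against 18.6, 16.6 and 13.4 CPM in normoxia. Hypoxic and normoxic libraries did not overlap in either sex, and the normoxic levels of females and males lay in the same range. Averaged over the sexes, Trp53 was 1.55-fold higher in hypoxia, a log2 fold change of 0.63 ± 0.14 (SE, n = 6 hypoxia and 6 normoxia libraries; edgeR adjusted p = 0.00817; 95% interval 0.32 to 0.94). In females alone the log2 difference was 0.83 ± 0.20 (edgeR adjusted p = 0.0374), and in males alone 0.43 ± 0.20, which did not pass (edgeR adjusted p = 0.167). The male value was 0.17 without male hypoxia library 3 (edgeR adjusted p = 0.585) and 0.07 without male hypoxia libraries 2 and 3 (edgeR adjusted p = 0.921). The female effect minus the male effect was 0.41 ± 0.28 on the log2 scale (edgeR adjusted p = 0.81; 0.76 without male hypoxia libraries 2 and 3), so the sexes were not shown to differ. The averaged call was kept when any 1 library was left out, but not without male hypoxia libraries 2 and 3 together (0.45, edgeR adjusted p = 0.0728) nor without these and female normoxia library 3 (0.39, edgeR adjusted p = 0.0673). The female call was lost in 12 of 26 alternatives, where the log2 fold change stayed between 0.71 and 1.01 and the adjusted p reached 0.15; of the single libraries, it survived the loss of male hypoxia library 1 or 3 or female hypoxia library 1 only. In bulk tissue a change in the number of cells that hold an RNA and a change in the RNA per cell cannot be told apart.

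Of the other cell types in the tissue, the 8 endothelial markers summed to 1203 to 1522 CPM in male hypoxia, against 824 to 1002 CPM in male normoxia, and to 1230 to 1605 CPM in female hypoxia, against 934.5 to 1120 CPM in female normoxia. The 8 fibroblast markers summed to 2179 to 2634 CPM in male hypoxia, against 1739 to 1840 CPM in male normoxia, while the female ranges overlapped, at 1760 to 2481 CPM in hypoxia and 1747 to 2155 CPM in normoxia. The 8 macrophage markers summed to 497 to 630 CPM in male hypoxia, against 277 to 367 CPM in male normoxia, and overlapped in females, at 311 to 472 CPM in hypoxia and 295 to 386 CPM in normoxia. The 8 adipocyte markers, of which Plin1 was at 0 in every library, summed to 936 to 1202 CPM in male hypoxia, against 533 to 665 CPM in male normoxia, and to 778 to 1023 CPM in female hypoxia, against 564 to 997 CPM in female normoxia. The 7 erythroid markers in the table summed to 9916 to 11937 CPM in male hypoxia, against 1626 to 2229 CPM in male normoxia, and 6735 to 11275 CPM in female hypoxia, against 1582 to 2044 CPM in female normoxia. The 8 lymphocyte markers were low, at 1.32 to 2.04 CPM in male hypoxia, against 4.13 to 4.92 CPM in male normoxia, and at 3.20 to 4.01 CPM in female hypoxia, against 3.02 to 5.85 CPM in female normoxia. The part of these cells in the Trp53 difference, or in that of any other member, was not tested. The genes whose levels followed Trp53 most closely over the 12 libraries were Armcx2 (root mean square difference of centred log2 CPM 0.116), Kctd17 (0.116) and Sparcl1 (0.124), where the median gene lay at 0.471.

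**Figure D1:**
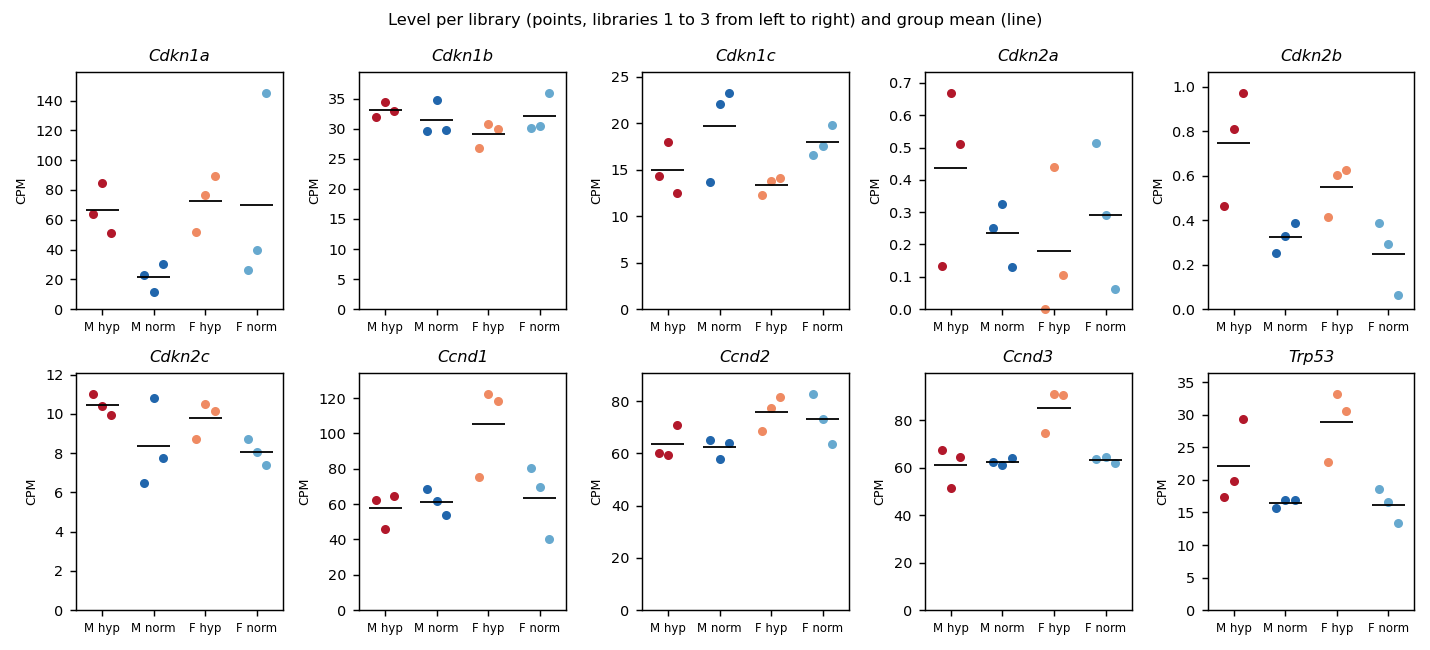
Level of each of the 10 members in every library, in CPM on linear axes that start at 0, with the groups ordered as male hypoxia, male normoxia, female hypoxia and female normoxia. Each point is 1 library and the horizontal line is the group mean (n = 3). Trp53 and Cdkn2b have hypoxia points above the normoxia points of the same sex in both sexes, and female normoxia library 3 stands alone at 145 CPM for Cdkn1a.

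Cdkn1a encodes p21, the CIP/KIP inhibitor through which p53 arrests the cycle. It had 64.2, 84.5 and 51.1 CPM in male hypoxia, against 22.6, 11.5 and 30.2 CPM in male normoxia. In females it had 52.0, 76.5 and 89.5 CPM in hypoxia, against 26.2, 39.6 and 145 CPM in normoxia. The male groups were clearly apart. In females, 2 normoxia libraries lay below all 3 hypoxia libraries and the third, library 3, was the highest of all 12. The means were 66.6 ± 16.8 CPM in male hypoxia and 21.4 ± 9.41 CPM in male normoxia, then 72.7 ± 19.0 CPM in female hypoxia and 70.2 ± 64.9 CPM in female normoxia (SD, n = 3 each).

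In males the log2 fold change of Cdkn1a was 1.64 ± 0.56, a 3.12-fold difference that missed the threshold (edgeR adjusted p = 0.0695). In females it was 0.05 ± 0.54 (edgeR adjusted p = 0.969), and averaged over the sexes 0.85 ± 0.39 (edgeR adjusted p = 0.124; 95% interval -0.00386 to 1.70). These calls depended on the libraries fitted. Without female normoxia library 3 the averaged log2 fold change was 1.39 (edgeR adjusted p = 0.0032), and the male contrast, fitted with 1 estimate of the spread shared over all groups, passed with the same size, 1.64 (edgeR adjusted p = 0.00898). The male contrast passed in 6 of 26 alternatives, among them the fit of the 6 male libraries alone, at 1.65 (edgeR adjusted p = 0.014). In females the log2 fold change was 1.14 without female normoxia library 3, which did not pass (edgeR adjusted p = 0.0914), and 1.34 when female hypoxia library 1 was left out as well (edgeR adjusted p = 0.0381). The female minus male difference, -1.59 ± 0.77 on the log2 scale, did not pass (edgeR adjusted p = 0.73) and was -0.50 without female normoxia library 3 (edgeR adjusted p = 0.932).

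The stretch upstream of the more distal start of Cdkn1a in RefSeq is shown because it holds a match to the tandem p53 response element, 2 decamer half-sites side by side without a spacer. The window lies at chr17:29090729-29090978 on the plus strand of GRCm38.p6, and capitals mark the 20-base match, which has 1 mismatch to the consensus. Such a match with at most 1 mismatch was present in 25 of 32851 RefSeq windows of 250 bases before a start (0.0761%), and in 1 of the 11 windows of the 7 members that had an entry. The match is a description of the letters, and binding was not measured.
Cdkn1a: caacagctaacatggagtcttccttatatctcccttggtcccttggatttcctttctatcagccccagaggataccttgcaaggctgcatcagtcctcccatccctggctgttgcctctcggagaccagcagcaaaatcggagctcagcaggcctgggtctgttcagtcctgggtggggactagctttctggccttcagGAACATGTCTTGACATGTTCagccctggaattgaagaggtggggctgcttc

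Cdkn1b encodes p27, the CIP/KIP inhibitor that is abundant in resting cells. It had 32.05, 34.5 and 32.9 CPM in male hypoxia, against 29.6, 34.9 and 29.9 CPM in male normoxia, and 26.9, 30.7 and 29.9 CPM in female hypoxia, against 30.1, 30.5 and 35.9 CPM in female normoxia. The groups overlapped in both sexes, and no library lay apart. Its averaged log2 fold change was -0.03 ± 0.07 (edgeR adjusted p = 0.766), with a 95% interval of -0.19 to 0.12.

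Cdkn1c encodes p57, the third CIP/KIP inhibitor and an imprinted growth regulator. It had 14.3, 18.01 and 12.4 CPM in male hypoxia, against 13.6, 22.1 and 23.2 CPM in male normoxia. In females it had 12.3, 13.8 and 14.1 CPM in hypoxia, against 16.6, 17.5 and 19.8 CPM in normoxia. The female groups were apart, whereas male normoxia library 1 lay among the hypoxic males. Averaged over the sexes, Cdkn1c fell by 0.41 ± 0.14 on the log2 scale (SE; edgeR adjusted p = 0.0449), and neither sex passed alone (edgeR adjusted p = 0.182 in males and 0.206 in females). The call lay at the threshold: it was lost in 17 of the 25 alternative analyses, over which the log2 fold change ranged from -0.51 to -0.08, and of the single libraries it survived the loss of male normoxia library 1 or male hypoxia library 2 only. Without male hypoxia libraries 2 and 3 together Cdkn1c stood at -0.44 (edgeR adjusted p = 0.126). The genes closest to its pattern were Fcgrt (root mean square difference 0.154), Aqp7 (0.159) and Tfpt (0.166), against a median of 0.374 over all genes compared.

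The INK4 genes were the least abundant members. Cdkn2b, which encodes p15 and is known as a target of transforming growth factor beta, had 7, 17 and 19 estimated counts in the male hypoxia libraries, against 4, 6 and 6 in male normoxia. In females it had 7, 11 and 12 estimated counts in hypoxia, against 6, 5 and 1 in normoxia. After scaling these were 0.463 to 0.969 CPM in male hypoxia, against 0.252 to 0.389 CPM in male normoxia, and 0.414 to 0.625 CPM in female hypoxia, against 0.0617 to 0.387 CPM in female normoxia. Hypoxia lay above normoxia in both sexes without overlap. The summed counts were 43 in male hypoxia (95% exact Poisson interval 31.1 to 57.9), against 16 in male normoxia (9.15 to 26), and 30 in female hypoxia (20.2 to 42.8), against 12 in female normoxia (6.2 to 21), intervals that cover counting error only. The averaged log2 fold change was 1.17 ± 0.39, a 2.25-fold rise (edgeR adjusted p = 0.0427), and neither sex passed alone (edgeR adjusted p = 0.142 in males and 0.239 in females). It lost its call in 14 of 24 alternatives, among them the analysis without male hypoxia libraries 2 and 3 (0.82, edgeR adjusted p = 0.348), and of the single libraries it survived the loss of male hypoxia library 1, female normoxia library 1 or female hypoxia library 1 only. Olfml3 (root mean square difference 0.162), Sox4 (0.212) and Ssc5d (0.215) followed its pattern most closely, with a median of 0.701 over the genes compared.

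Cdkn2a, the locus of p16 and of the p53-stabilising protein p19Arf, did not pass the filter on low counts. It had 2, 14 and 10 estimated counts in male hypoxia, against 4, 6 and 2 in male normoxia, and 0, 8 and 2 in female hypoxia, against 8, 5 and 1 in female normoxia. The count of 0 in female hypoxia library 1 allows a level of up to 0.173 CPM on the unscaled library total (3 counts of 17330593). The sums were 26 in male hypoxia (95% exact Poisson interval 17 to 38.1), against 12 in male normoxia (6.2 to 21), and 10 in female hypoxia (4.8 to 18.4), against 14 in female normoxia (7.65 to 23.5). A difference was not detectable at these low counts and this spread between libraries. Without the filter the averaged log2 fold change was 0.13 ± 0.70 (edgeR adjusted p = 1). The estimates of the sexes had opposite signs, 0.89 ± 0.94 in males (edgeR adjusted p = 0.622) and -0.63 ± 0.99 in females (edgeR adjusted p = 0.818). Gene-level counts do not separate the p16 from the p19Arf transcript. The annotated transcripts have 852 and 895 bases, and the shorter starts 12461 bases further downstream. The effective length, described below, was 602 bases in every male normoxia library and 602 to 645 bases in male hypoxia. It was 626 to 645 bases in female hypoxia, where library 1 has a length despite its count of 0, and 627 to 645 bases in female normoxia. Which transcript gave these few reads was not tested.

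Cdkn2c encodes p18, the INK4 member with the highest level in these hearts. It had 10.99, 10.4 and 9.94 CPM in male hypoxia, against 6.48, 10.8 and 7.77 CPM in male normoxia, and 8.70, 10.5 and 10.1 CPM in female hypoxia, against 8.70, 8.07 and 7.40 CPM in female normoxia. Hypoxic libraries were mostly higher, with 1 male normoxia library among them and 1 tie to the third digit in females. The averaged log2 fold change was 0.30 ± 0.12 and did not pass (edgeR adjusted p = 0.0932), but did without male normoxia library 2 (0.42, edgeR adjusted p = 0.0168). With transcript length offsets in the fit it was 0.12 (edgeR adjusted p = 0.548), and 0.07 in females alone (edgeR adjusted p = 0.876).

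Effective length is an average over the transcripts to which Salmon assigned reads, and it is shorter than the annotated length. Cdkn2b, annotated at 1390 bases, had an effective length of 1140 bases in every library. The effective length of Cdkn2c differed between the conditions. It was 1317, 1260 and 1422 bases in male hypoxia, against 1158, 1215 and 1212 bases in male normoxia, and 1284, 1333 and 1288 bases in female hypoxia, against 1225, 1160 and 1006 bases in female normoxia. Hypoxia lay above normoxia in both sexes. The mean was 155 bases longer in hypoxia, 1317 bases against 1163 bases in normoxia (two-sided exact permutation within sex, p = 0.005, the smallest the 400 arrangements allow, and 0.04 after Benjamini-Hochberg adjustment over the 8 members whose length varied). With any 1 library left out the difference lay between 124 and 179 bases. Cdkn1b was longer by 134 bases in hypoxia (exact permutation p = 0.04, adjusted 0.16), and the other 6 had p of 0.32 or more. Lengths of genes outside the members were not tested, so the share of all genes with such a difference is not known.

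GENCODE M21 lists 2 protein-coding Cdkn2c transcripts, one of 2471 bases and one of 1106 bases that starts 1817 bases further downstream. The effective length therefore moves towards the longer form when more reads are assigned to it, and the deposited gene-level table does not give the transcripts one by one. The stretch upstream of the downstream start is shown because it is where the shorter form would begin. It lies at chr4:109665373-109665609 on the minus strand of GRCm38.p6 in RefSeq, 237 bases free of annotated untranslated sequence, and capitals mark matches to the core of the hypoxia response element, ACGTG, read on either strand (CACGT). The window holds 2 matches, and at least 1 was present in 5444 of 32851 windows (16.6%) and in 1 of the 11 member windows.
Cdkn2c: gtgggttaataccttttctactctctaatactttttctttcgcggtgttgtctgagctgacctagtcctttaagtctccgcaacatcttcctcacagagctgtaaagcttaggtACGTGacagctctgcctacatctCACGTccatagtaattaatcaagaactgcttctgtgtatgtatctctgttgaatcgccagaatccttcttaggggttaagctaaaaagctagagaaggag

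**Figure D2:**
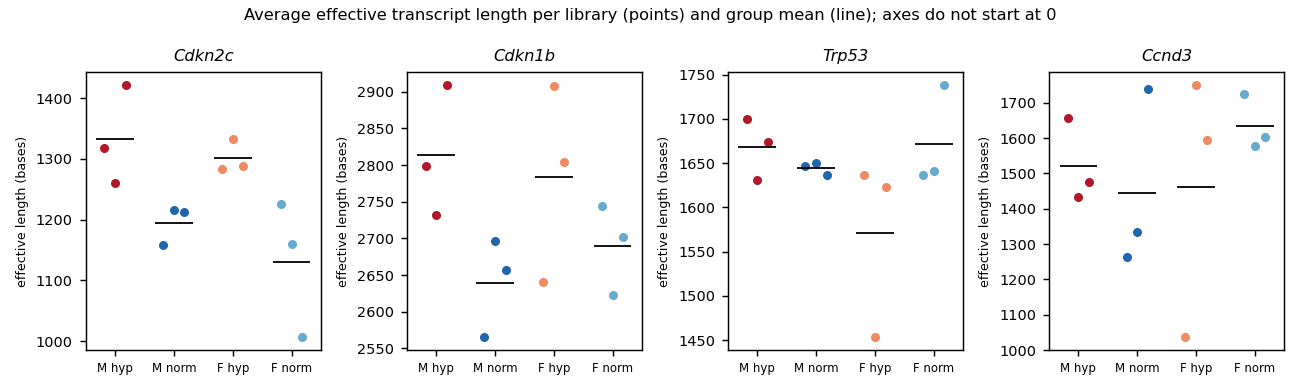
Effective transcript length in bases for Cdkn2c, Cdkn1b, Trp53 and Ccnd3, from among the members whose length varied, by library and group, with the group mean as a line (n = 3). Cdkn2c lies between 1260 and 1422 bases in all hypoxia libraries, against 1006 to 1225 bases in the normoxia libraries of the same panel.

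The D cyclins, the positive regulators among the members, differed from one another. Ccnd3 had 67.3, 51.6 and 64.5 CPM in male hypoxia, against 62.2, 61.1 and 64.1 CPM in male normoxia. In females it had 74.4, 90.8 and 90.4 CPM in hypoxia, against 63.6, 64.6 and 61.85 CPM in normoxia. The female groups were apart, the male groups overlapped, and all female hypoxia libraries also lay above all male hypoxia libraries. In females Ccnd3 rose by 0.43 ± 0.11 on the log2 scale (edgeR adjusted p = 0.0452), whereas the male difference was -0.03 ± 0.11 (edgeR adjusted p = 0.875). The female call sat at the threshold and was lost in 15 of 26 alternatives, with adjusted p from 0.00636 to 0.19 over all 26. Of the single libraries it survived the loss of male hypoxia library 1 or 2 or female hypoxia library 1 only. Averaged over the sexes Ccnd3 was at 0.20 ± 0.08 (edgeR adjusted p = 0.0807), which passed at 0.25 without male hypoxia library 2 (edgeR adjusted p = 0.0263) or female hypoxia library 1 (edgeR adjusted p = 0.0241). It was also one of 2 female calls among the 9 members, with Trp53, where 5.99% of all genes were called in females (3.97% higher and 2.02% lower).

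Ccnd1 had 62.5, 45.8 and 64.8 CPM in male hypoxia, against 68.7, 61.7 and 53.6 CPM in male normoxia. In females it had 75.4, 122 and 118 CPM in hypoxia, against 80.2, 69.8 and 40.1 CPM in normoxia. Female hypoxia libraries 2 and 3 stood above all others, library 1 lay within the normoxic range, and female normoxia library 3 was the lowest of the 12. The female log2 fold change of 0.73 ± 0.25 did not pass (edgeR adjusted p = 0.103), but did with DESeq2 (adjusted p = 0.037) and by edgeR without female hypoxia library 1 (0.93, adjusted p = 0.0325) or without that library and female normoxia library 3 (0.69, adjusted p = 0.0217). Without female normoxia library 3 alone it was 0.49 (edgeR adjusted p = 0.188). In males it was -0.09 ± 0.25 (edgeR adjusted p = 0.847).

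Ccnd2 had 60.1, 59.5 and 70.9 CPM in male hypoxia, against 65.1, 57.8 and 64.05 CPM in male normoxia, and 68.6, 77.3 and 81.5 CPM in female hypoxia, against 82.5, 73.3 and 63.7 CPM in female normoxia. The groups overlapped in both sexes. Its averaged log2 fold change was 0.04 ± 0.08 (edgeR adjusted p = 0.754), with a 95% interval of -0.14 to 0.22.

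**Figure D3:**
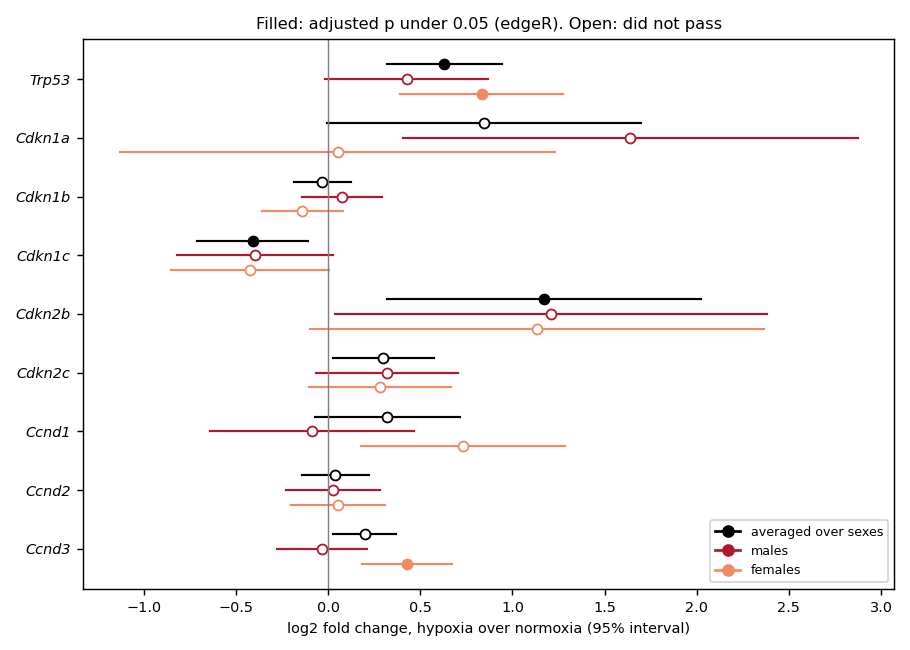
Log2 fold change of hypoxia over normoxia for the 9 tested members for each sex and for the average of the sexes, with 95% intervals as bars. Trp53 lies at 0.43, 0.83 and 0.63, and Cdkn1a has the widest gap between the sexes, 1.64 in males and 0.05 in females.

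In males alone none of the 9 members was called by edgeR, where 15.6% of all genes were (8.47% higher and 7.10% lower). At an unadjusted p under 0.05 by edgeR there were 2, Cdkn1a and Cdkn2b, beside 4548 of the 13960 genes. DESeq2 and limma voom called 0 members, where they called 20.8% and 15.2% of all genes. Counting groups that did not overlap, Cdkn1a, Cdkn2b and Trp53 lay higher in hypoxic males, as did 21.5% of all genes. In females Cdkn2b, Cdkn2c, Ccnd3 and Trp53 lay higher, as did 13.2% of all genes, and Cdkn1c lay lower, as did 12.7%.

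The sex difference in the response was called for none of the 9 members by edgeR, DESeq2 or limma voom. Of all genes, these called 0.00716%, 0.466% and 0.0143% in that order. By edgeR 948 of the 13960 genes had an unadjusted p under 0.05, among them 2 members. They were Ccnd1, with a female minus male difference of 0.82 ± 0.36 on the log2 scale (edgeR adjusted p = 0.73), and Ccnd3, with 0.46 ± 0.16 (edgeR adjusted p = 0.665). Both female estimates were the higher ones. Without male hypoxia libraries 2 and 3 and female normoxia library 3 the differences were 0.46 for Ccnd1 and 0.30 for Ccnd3.

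Between hypoxic females and hypoxic males, none of the 9 members was called by edgeR, beside 0.150% of all genes (0.0358% higher and 0.115% lower in females). By edgeR 1345 of the 13960 genes had an unadjusted p under 0.05, among them 3 members. Ccnd3 was 1.40-fold higher in females than in males (log2 0.48 ± 0.11, edgeR adjusted p = 0.181) and Ccnd1 was 1.83-fold higher (0.87 ± 0.25, edgeR adjusted p = 0.286). Ccnd2 was 1.19-fold higher (0.26 ± 0.12, edgeR adjusted p = 0.513). Ccnd1 and Ccnd3 did not overlap between the sexes in hypoxia, as held for 7.34% of all genes in that direction. DESeq2 called both (DESeq2 adjusted p = 0.0459 for Ccnd1 and 0.00802 for Ccnd3), beside 1.32% of all genes. Without female normoxia library 3 and female hypoxia library 1 both also passed by edgeR, as did 1.55% of all genes. Ccnd1 then stood at 1.07 (edgeR adjusted p = 0.017) and Ccnd3 at 0.58 (edgeR adjusted p = 0.0316). Cdkn1b lay lower in hypoxic females without overlap, as did 8.14% of all genes, at -0.18 ± 0.10 (edgeR adjusted p = 0.612).

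Between normoxic females and normoxic males none of the 9 was called by edgeR or DESeq2. Of all genes edgeR called 0.0716% (0.0430% higher and 0.0287% lower in females) and DESeq2 0.416%. By edgeR 1018 of the 13960 genes had an unadjusted p under 0.05, among them 1 member. This was Cdkn1a, at 1.72 ± 0.56 on the log2 scale (edgeR adjusted p = 0.642), where female normoxia library 3 holds the highest value, and without that library it was 0.63 (edgeR adjusted p = 0.994). No member separated the normoxic sexes without overlap, as 7.16% of all genes did with females higher and 6.71% with females lower.

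**Figure D4:**
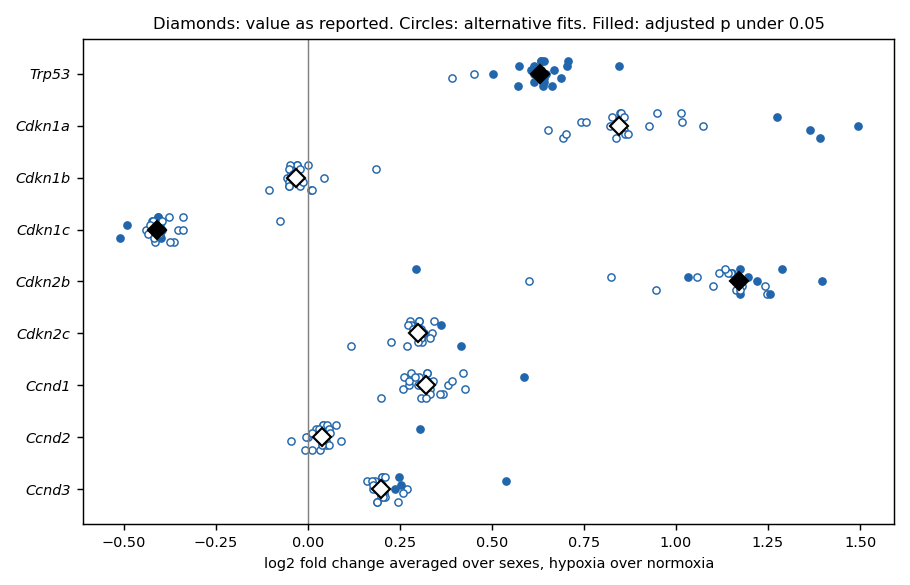
Averaged log2 fold change of each tested member under the alternative analyses, with filled points for those that passed an adjusted p of 0.05 and open points for those that did not. Trp53 passed in 23 of 25, Cdkn1c lost its call in 17 of 25 and Cdkn2b in 14 of 24, and all points of these 3 genes stay on the side of the reported value.

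Levels of different genes were compared in TPM, an abundance that divides by transcript length and library size. Ccnd3 had the highest mean over the 12 libraries, 28.7 TPM, followed by Cdkn1a at 23.7 TPM, and Ccnd3 exceeded Cdkn1a in 9 of 12 libraries. Ccnd1 followed at 13.1 TPM and exceeded Trp53, at 8.28 TPM, in 12 of 12. Trp53, Cdkn1b (7.20 TPM) and Ccnd2 (7.08 TPM) were not ordered beyond their spread, with Trp53 above Cdkn1b in 5 libraries and Cdkn1b above Ccnd2 in 6. Cdkn1c (6.18 TPM) exceeded Cdkn2c (4.65 TPM) in every library, and Cdkn2a (0.296 TPM) and Cdkn2b (0.270 TPM) closed the order. Cdkn1a varied most among the genes with a level above 1 TPM, 12.3-fold between its lowest and highest library (4.20 to 51.7 TPM), and Cdkn1b least, 1.74-fold.

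Summed over Ccnd1, Ccnd2 and Ccnd3, the D cyclin level was 47.5 ± 4.03 TPM in male hypoxia and 38.5 ± 4.98 TPM in male normoxia, then 69.2 ± 5.46 TPM in female hypoxia and 40.1 ± 5.17 TPM in female normoxia (SD, n = 3 each). Ccnd3 made up 59.1% to 61.1% of that sum in male hypoxia and 58.8% to 62.8% in male normoxia, then 52.1% to 68.6% in female hypoxia and 50.2% to 63.7% in female normoxia. The effective length of Ccnd3 ran from 1036 to 1752 bases in female hypoxia, against 1577 to 1725 bases in female normoxia, so its TPM there also depends on how reads were assigned to its transcripts. TPM carries a general shift: on the log2(TPM + 1) scale the median of all tested genes was 0.19 higher in hypoxia averaged over the sexes. It was 0.265 higher in males and 0.123 higher in females. On counts the male log2 fold changes of Ccnd1, Ccnd2 and Ccnd3 were -0.09, 0.03 and -0.03. In the averaged contrast on the log2(TPM + 1) scale limma called 7 members higher and none lower, beside 33.5% of all genes called in either direction. Cdkn1c, called lower on counts, stood at -0.08 on that scale (limma adjusted p = 0.726), below the median of all genes.

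The kinases and transcription factors on which the members act were followed with a list of 28 genes. Of this cyclin-dependent kinase, retinoblastoma and E2F core, 27 were tested, and 11 rose and 1 fell in the averaged contrast, where 15.0% of all genes rose and 12.9% fell, with a median log2 fold change of 0.56. Ccnb1, the mitotic cyclin, rose by 2.49 ± 0.31 on the log2 scale, with 2.71 to 5.20 CPM in male hypoxia against 0.314 to 0.648 CPM in male normoxia, and 1.54 to 3.67 CPM in female hypoxia against 0.409 to 0.773 CPM in female normoxia (edgeR adjusted p = 0.000492). Cdk1, its kinase partner, rose by 2.12 ± 0.32 (edgeR adjusted p = 0.00126), and Cks2, a small subunit of that kinase, by 2.06 ± 0.32 (edgeR adjusted p = 0.00152). E2f1, the E2F factor released by the retinoblastoma protein, rose by 1.17 ± 0.16 (edgeR adjusted p = 0.000867). The direct partners of the D cyclins did not pass, with Cdk4 at -0.07 ± 0.08 (edgeR adjusted p = 0.528) and Cdk6 at 0.49 ± 0.18 (edgeR adjusted p = 0.0651). In males 8 of the 27 rose, beside 8.47% of all genes, and in females 6, beside 3.97%.

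The 8 markers of mitotic cells, which include the Ccnb1 named above, summed to 45.9 to 67.3 CPM in male hypoxia, against 11.1 to 17.3 CPM in male normoxia. In females they summed to 33.3 to 74.9 CPM in hypoxia, against 11.96 to 22.0 CPM in normoxia. Which cells carried them was not tested. Without male hypoxia libraries 2 and 3, 8 of 28 core genes rose and none fell, beside 8.83% of all genes called in either direction.

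Trp53 was set beside genes that p53 is known to activate. Of 30 targets, 29 were tested, and 9 rose and 4 fell in the averaged contrast, beside 15.0% and 12.9% of all genes, with a median log2 fold change of 0.28. The 4 that fell are close to the share of all genes. In males 4 rose and 1 fell, beside 8.47% and 7.10% of all genes, and in females 1 rose and 1 fell, beside 3.97% and 2.02%. Perp, a desmosomal p53 target, rose by 0.49 ± 0.07 (edgeR adjusted p = 0.0013), and Zmat3, an RNA-binding p53 target, by 0.65 ± 0.12 (edgeR adjusted p = 0.00355). Phlda3, an inhibitor of Akt, rose by 0.80 ± 0.17 (edgeR adjusted p = 0.00576). Rrm2b, the p53-inducible ribonucleotide reductase subunit, fell by 0.65 ± 0.09 (edgeR adjusted p = 0.000997). Without male hypoxia libraries 2 and 3 the counts were 2 higher and 3 lower of 29, beside 8.83% of all genes called in either direction.

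Among 15 regulators of p53, 2 rose and none fell, no more than the 15.0% and 12.9% of all genes: Usp7, a deubiquitinase of Mdm2 and p53, by 0.22 ± 0.06 (edgeR adjusted p = 0.0153), and Ppm1d, a phosphatase that restrains p53, by 0.36 ± 0.11 (edgeR adjusted p = 0.0282). Neither kept its call without male hypoxia libraries 2 and 3, where 0 of 15 passed. Mdm2, the main ubiquitin ligase of p53 and itself a target, was at 0.07 ± 0.05 (edgeR adjusted p = 0.392), Cop1, another ligase, at -0.16 ± 0.06 (edgeR adjusted p = 0.0817) and the deacetylase Sirt1 at 0.24 ± 0.12 (edgeR adjusted p = 0.148).

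Of 14 other inhibitors of kinases or proliferation, 13 were tested, and 1 rose and 2 fell, beside the same shares of all genes. Btg1, an antiproliferative gene of the BTG/TOB family, rose by 0.86 ± 0.11 (edgeR adjusted p = 0.000548), at 35.4 to 48.2 CPM in male hypoxia against 20.5 to 21.4 CPM in male normoxia, and at 23.2 to 35.3 CPM in female hypoxia against 16.8 to 18.8 CPM in female normoxia. Tob2, of the same family, fell by 0.38 ± 0.11, and the stress-induced Gadd45b fell by 0.87 ± 0.24 (edgeR adjusted p = 0.0204 for each). Gadd45a, a p53 target as well, was at -0.67 ± 0.25 (edgeR adjusted p = 0.0631).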

How the data were processed

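RNA sequencing libraries from ventricles were made with a directional kit, per the labels' protocols. The submitters' processing notes name FastQC, Salmon and the GRCm39 build; versions and the strand setting are not given in the sources used here. The deposited table, per the file headers, holds estimated counts, TPM and effective transcript lengths for each gene and library. Cdkn1a, Cdkn1c, Ccnd1, Ccnd2 and Ccnd3 overlap genes on the other strand, so their values are uncertain if strand was ignored.

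The estimated counts were rounded here. filterByExpr left 13960 genes, 9 of the 10 members among them. A group-means model with TMM factors was fitted to all 12 libraries in edgeR 4.0.16 (R 4.3.3), with two-sided quasi-likelihood tests and Benjamini-Hochberg adjustment over all 13960 genes. The deposited TPM values were used for levels between genes, with a pseudocount of 1 where logged. Only the edgeR fit of the averaged contrast was tested on simulated data. Alternatives used DESeq2 1.42.0, limma 3.58.1, other scalings and filters, length offsets and left-out libraries. 0 columns of values belonged to no sample.

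The members, gene lists and alternatives were chosen with earlier results of these data known, and the motif searches after the sequences were read. Besides the members, the rule named up to 4 genes of each list with the smallest averaged p, with E2f1, Mdm2, Cdk4 and Cdk6, and the 3 genes closest in pattern to each called member. Symbols and transcripts came from annotation of another build (GRCm38, GENCODE M21), so no coordinates were transferred. RefSeq windows were found for 7 of the 10 members.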

Additional observations from a re-analysis of the deposited data

How the results depend on the processing

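No member that passed changed direction in any alternative. Of 1377 member values from the alternatives, 60 lost and 28 gained a call, and 1289 stayed on their side of the threshold, of which 91 changed sign with neither value past it. Depth limits Cdkn2a and Cdkn2b.

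Counts of all genes moved by more than 1.5 times as follows. The averaged contrast called 3896 genes, but 1295 without male hypoxia libraries 2 and 3 and 2329 when female normoxia library 3 was left out as well; single libraries left out gave 2685 to 4635. The male contrast called 2174 genes, 1263 with length offsets, 3648 on log2(TPM + 1), 66 without male hypoxia libraries 2 and 3, 176 without these and female normoxia library 3, and 3810 without female normoxia library 3 and female hypoxia library 1, an alternative chosen after seeing the data; single libraries gave 877 to 3036. The female contrast called 836 genes, 1667 with DESeq2, 362 with length offsets, 40 with only the compared libraries, 457 without male hypoxia libraries 2 and 3 and 2655 without the added pair; single libraries gave 55 (without female hypoxia library 3) to 2081 (without female hypoxia library 1). The interaction called 1 gene, 65 with DESeq2, 2 with voom, 6 with no filter, 3 on log2(TPM + 1), and 7 and 6 in the analyses without 2 and 3 libraries; single libraries gave 1 to 5. Females against males in normoxia called 10 genes, 58 with DESeq2, and 6 with only the compared libraries or without the added pair; single libraries gave 5 to 10. Females against males in hypoxia called 21 genes, 184 with DESeq2, 13 with length offsets, 12 with only the compared libraries, 12 without male hypoxia libraries 2 and 3 and female normoxia library 3, and 221 without the added pair; single libraries gave 9 to 40. The cause was not tested.

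The replicate numbers are shared between groups, and whether they pair the libraries was not settled. Of 18 same-number pairs, 1 had a correlation of deviations over 0.1 (range -0.05 to 0.19), while 9 of 12 libraries correlated best with their own number. With the replicate number as a block, the averaged contrast called 3931 genes and kept Trp53 and Cdkn1c, while Cdkn2b had an edgeR adjusted p of 0.0727. In males it called 2268 genes and Cdkn1a (edgeR adjusted p = 0.0447), in females 800 genes and no member (Trp53 0.051 and Ccnd3 0.0632), and 1, 6 and 14 genes for the interaction, the sexes in normoxia and the sexes in hypoxia.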
